A study of Mus musculus and Homo sapiens with 40 samples.

Results

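The H3K27ac map of HPC-7 cells held 3863 regions that were listed in p30 cells before and after LPS and in p42 cells after LPS, but not in untreated p42 cells. H3K27ac peaks of the 4 deposited lists were merged where they shared at least 1 bp on chromosomes 1 to 19, X and Y, which gave 183190 regions. A region was a member when the untreated p42 list had no peak in it and the other 3 lists each had at least 1. Members made up 2.11% of all regions and 6.38% of the 60514 regions found in the other 3 lists. Members were therefore chosen by their H3K27ac peaks, whose values are given below as a description, without a test. Absence here means that no peak was called, not that the mark was missing.

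HPC-7 cells are a line of mouse blood progenitors that depends on stem cell factor. The p42 line carried CEBPA p42 fused to ERT2 and the p30 line carried CEBPA p30 fused to ERT2, both from a retroviral vector in cells sorted for GFP, so isoform and line cannot be told apart. Cells were untreated (UT) or exposed to LPS from Escherichia coli at 100 ng/mL for 2 h. H3K27ac was measured in 3 replicates of each of the 4 groups, p42 UT, p42 LPS, p30 UT and p30 LPS, H3K4me1 in 2 replicates of untreated cells of each line, and anti-CEBPA and anti-ER binding in 1 library of untreated cells of each line. The drug 4-hydroxytamoxifen moves ERT2 fusions into the nucleus, and the study's methods name it for these lines without stating it for each ChIP-seq library. Replicates of a histone mark were pooled into 1 list, so no replicate spread is available, and intervals below are Wilson 95% intervals over regions that cover counting error only.

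C/EBPα is a transcription factor needed for the formation of granulocytes and monocytes. Its full-length isoform p42 carries transactivation domains in the N-terminal part, and the shorter isoform p30, made in leukemias with CEBPA mutations, lacks most of them but keeps the basic region and leucine zipper that bind DNA. H3K27ac marks active enhancers and promoters, and H3K4me1 marks enhancers that may be primed or active. LPS is sensed by TLR4 and activates NF-kB and AP-1, transcription factors that switch on cytokine genes within hours. A region active in p30 cells at rest and in p42 cells after LPS is one where the resting p30 list already holds a peak that the p42 lists hold in the stimulated state alone.

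The sequences of 5 members are given to show the motifs that the results below count, each as 200 bp around the strongest H3K27ac summit and taken from GRCm39, the build of the deposited coordinates. They are among the best ranked members outside promoters and exons that held an NF-kB, an AP-1 or a C/EBP sequence within 100 bp of the summit. The strand is the forward strand of the assembly, and capitals mark the matched sequence on either strand. The first is intergenic, 258 kb upstream of the nearest protein-coding start, that of Runx1, at chr16:92881383-92881582. The second lies in an intron of Lyn, a Src family kinase, at chr4:3762896-3763095. The third lies in an intron of Cutc at chr19:43760210-43760409. The fourth is intergenic, 1.65 kb upstream of Dynlt1b, which encodes a dynein light chain, at chr17:6695719-6695918. The fifth lies in an intron of a long non-coding RNA gene, 168 kb from Cand1, at chr10:118876082-118876281.
Runx1 NF-kB: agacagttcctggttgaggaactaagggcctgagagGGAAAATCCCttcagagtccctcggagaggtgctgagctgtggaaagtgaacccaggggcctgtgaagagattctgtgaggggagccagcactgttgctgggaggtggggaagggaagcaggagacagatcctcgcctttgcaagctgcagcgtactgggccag
Lyn AP-1: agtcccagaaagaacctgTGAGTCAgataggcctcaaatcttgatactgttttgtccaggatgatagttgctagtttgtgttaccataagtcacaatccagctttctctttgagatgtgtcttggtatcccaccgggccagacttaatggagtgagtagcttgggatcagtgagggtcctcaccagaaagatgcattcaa
Cutc AP-1: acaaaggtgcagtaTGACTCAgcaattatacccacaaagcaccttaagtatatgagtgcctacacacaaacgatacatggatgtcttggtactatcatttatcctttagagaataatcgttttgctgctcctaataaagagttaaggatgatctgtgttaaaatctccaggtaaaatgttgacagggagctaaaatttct
Dynlt1b CEBP: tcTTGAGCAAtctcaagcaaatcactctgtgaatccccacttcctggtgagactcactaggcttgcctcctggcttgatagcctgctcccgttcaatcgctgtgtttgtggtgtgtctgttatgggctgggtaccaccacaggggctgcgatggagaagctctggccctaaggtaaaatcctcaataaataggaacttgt
Cand1 CEBP: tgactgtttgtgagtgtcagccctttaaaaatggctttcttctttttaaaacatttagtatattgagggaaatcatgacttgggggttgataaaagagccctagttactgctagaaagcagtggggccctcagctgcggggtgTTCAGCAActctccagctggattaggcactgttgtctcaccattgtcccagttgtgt
The NF-kB window near Runx1 carried GGAAAATCCC. The AP-1 windows carried TGAGTCA in Lyn and TGACTCA in Cutc, which read as each other on the opposite strand. Such matches at the summit were uncommon: 134 of the 3863 members (3.47%) held an NF-kB sequence within 100 bp of the summit, 244 (6.32%) an AP-1 sequence and 221 (5.72%) a C/EBP sequence. Outside promoters the shares were 3.47%, 6.35% and 5.75% of members, against 2.38%, 5.55% and 6.17% of all regions.

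The cells had H3K27ac at progenitor promoters in every condition. All 8 progenitor markers, Gata2, Tal1, Lyl1, Lmo2, Runx1, Kit, Cd34 and Myb, had a promoter peak in each of the 4 H3K27ac lists. Of 33 lymphoid and mast cell markers, 8 had one in p42 UT, 8 in p42 LPS, 9 in p30 UT and 12 in p30 LPS. Il13 had one in both p30 lists and neither p42 list, and Cd4, Cd79a and Klrb1c had one in p30 LPS alone. Cd3e, Pax5, Ebf1, Rag1, Fcer1a and Cma1 were among those with none in any list. The H3K27ac lists held 129369 peaks in p42 UT, 107141 in p42 LPS, 139210 in p30 UT and 142419 in p30 LPS. Read depth per library was not analysed here, and list length was the only measure of how much was called. With lists cut to their best 107141 peaks each, 3599 regions of 147141 were members.

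Members were regions of low H3K27ac in the lists that held them, narrower than regions in all 4 lists but not than the map. Their width had a median of 576 bp, with 325 bp at the lower and 1115 bp at the upper decile. Regions present in all 4 lists had a median of 1464 bp, and all regions together 434 bp. The median was 530 bp for regions absent in p30 UT only and 427 bp for regions in both p30 lists and neither p42 list. For regions in both LPS lists and neither UT list it was 379 bp. When peaks were ranked by q-value within each list, the median member had a rank percentile of 73.8 in p42 LPS, where 100 is the weakest peak, 59.8 in p30 UT and 54.1 in p30 LPS. Median fold enrichment over input was 2.94, 2.97 and 2.97 in the same lists. Regions found in all 4 lists had a median fold of 4.80 in p42 LPS, 4.99 in p30 UT and 5.08 in p30 LPS. In p30 LPS 3 members were among the strongest 10% of peaks, in p30 UT 1 and in p42 LPS 0. The weaker 50% of the list held 85.7% of members in p42 LPS, 65.2% in p30 UT and 55.2% in p30 LPS.

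**Figure D1:**
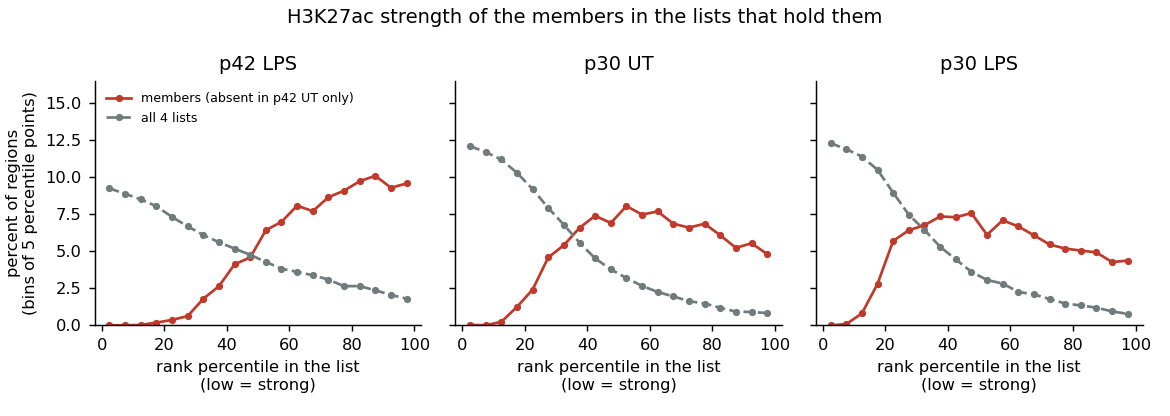
Rank percentile of the best peak in each region (x axis, low is strong) against the percent of regions per bin of 5 percentile points (y axis), for members and for regions in all 4 lists. Members lie towards the weak end, most of all in p42 LPS, with a median of 73.8 against 31.0 for regions in all 4 lists.

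The p30 LPS list gave 2262 of 3863 members (58.6%) a lower rank percentile than the p30 UT list, and 50.9% of regions in all 4 lists. These lists differ in length and chose the members, so the order of ranks is a description and no measure of a change with LPS. The best of the 3 ranks came from p30 LPS in 1930 members, from p30 UT in 1360 and from p42 LPS in 573. Few members sat at the q-value limit of the lists: 142 had a p42 LPS peak with a q between 0.01 and 0.05, 125 a p30 UT peak and 118 a p30 LPS peak of that kind. Just outside the rule were 384 regions in all 4 lists whose p42 UT peak had a q in that range, with a median −log10 q of 1.70. Their median −log10 q in the other lists was 4.11 in p42 LPS, 4.91 in p30 UT and 5.32 in p30 LPS, close to 4.06, 4.59 and 5.32 in the members. A total of 490 members had q under 1e-05 in all 3 lists that held them.

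Most members were neighbours of H3K27ac that untreated p42 cells did have. The nearest untreated p42 peak was 830 bp away at the median, within 500 bp for 35.7% of members, within 1000 bp for 55.4% (53.8 to 56.9) and within 5000 bp for 85.6%. A total of 157 members (4.06%) were more than 20000 bp from one. The mirror regions, which lacked a peak in untreated p30 cells alone (3657 regions), had a median distance of 771 bp to an untreated p30 peak and 56.4% within 1000 bp. Regions listed in both p30 lists and neither p42 list were further from untreated p42 peaks, with 46.1% (45.2 to 47) within 1000 bp.

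C/EBPα binding was scarce at the members, and H3K4me1 was not. An anti-CEBPA peak overlapped 79 of 3863 members in p42 cells (2.05%, 1.64 to 2.54) and 56 in p30 cells (1.45%, 1.12 to 1.88). The anti-ER antibody, which sees the ERT2 part of either fusion, overlapped 53 members in p42 cells (1.37%, 1.05 to 1.79) and 140 in p30 cells (3.62%, 3.08 to 4.26). Any of the 4 site lists touched 176 members (4.56%, 3.94 to 5.26), and all 4 touched 24. These antibody and H3K4me1 lists were not part of the rule that chose the members.

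The mirror regions, which have the same form with the lines exchanged, held sites far more often. An anti-CEBPA site lay in 12.7% (11.6 to 13.8) of them in p42 cells and in 8.23% (7.38 to 9.17) in p30 cells. The anti-ER shares were 11.3% in p42 and 12.8% in p30. The difference, members minus mirror regions, was -10.6 percentage points (Newcombe interval -11.8 to -9.46) for anti-CEBPA in p42, -6.78 (-7.77 to -5.83) for anti-CEBPA in p30, -9.98 (-11.1 to -8.9) for anti-ER in p42 and -9.15 (-10.4 to -7.92) for anti-ER in p30. Over all 183190 regions the shares were 6.74%, 5.41%, 6.54% and 8.86%, so members were below and mirror regions above the whole map in each of the 4 lists when regions of all widths were counted.

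**Figure D2:**
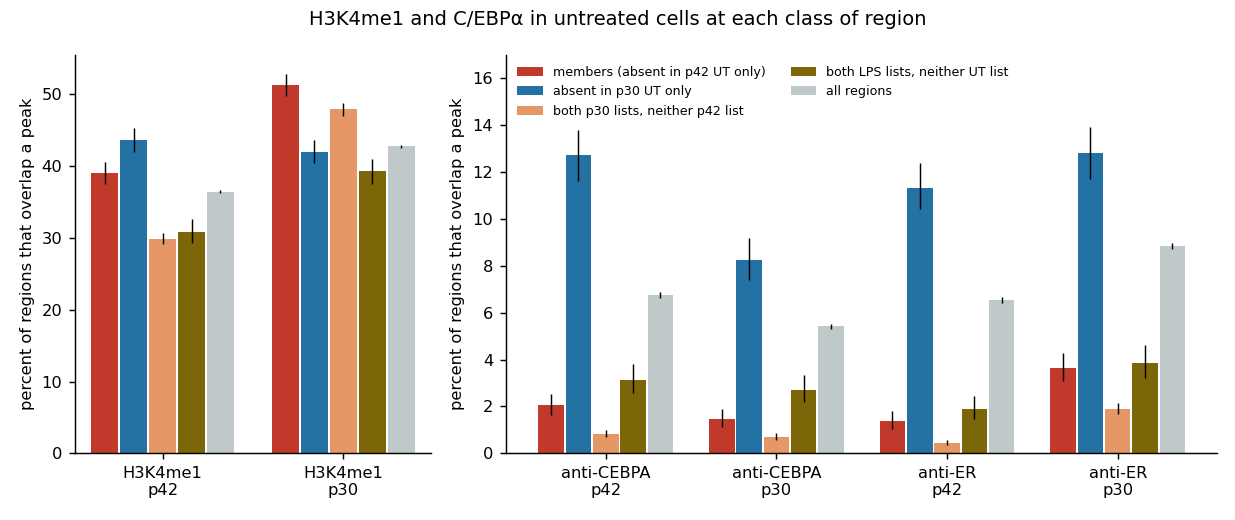
Percent of regions that overlap a listed peak (y axis) in untreated p42 or p30 cells, for members, 3 comparison classes and all regions, with Wilson 95% intervals as error bars. In the 4 C/EBPα lists members sit between 1.37% and 3.62%, mirror regions between 8.23% and 12.8%.

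The gap between members and mirror regions held within classes of width, which differed little between them (medians of 576 and 530 bp). Among regions under 400 bp, anti-CEBPA in p42 was found at 1.35% of members and 6.08% of mirror regions. From 400 to 800 bp the shares were 1.89% and 9.98%, and at 800 bp or more they were 2.94% and 27.3%. Both shares grew with width, and for anti-ER in p30 the member share went from 2.34% under 400 bp to 5.88% at 800 bp or more. Against all regions of the same width the member shares were lower in each of the 4 lists from 400 bp on, and below 400 bp they were not lower beyond counting error. Among all regions, anti-CEBPA in p42 was found at 1.83%, 4.13% and 16.7% of the 3 width classes. Under 400 bp the members had 1.23% against 1.2% of all regions for anti-CEBPA in p30, 1.23% against 1.17% for anti-ER in p42 and 2.34% (1.5 to 3.63) against 1.72% for anti-ER in p30, and the member interval for anti-CEBPA in p42, 0.758 to 2.41, included the 1.83% of all regions. Members over 1000 bp from an untreated p42 peak held a site of any kind in 5.57% (4.58 to 6.75), and mirror regions over 1000 bp from an untreated p30 peak in 26.5% (24.4 to 28.7). Beyond 20000 bp the shares were 15.9% (11.0 to 22.5) of 157 members and 44.9% (38.1 to 51.9) of 196 mirror regions. In the 490 members with q under 1e-05 in the 3 lists, 10.6% (8.18 to 13.7) held a site, against 31.7% (28.4 to 35.2) of the 717 mirror regions chosen in the same way.

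Against the other classes without an untreated p42 peak, the members were intermediate in anti-CEBPA sites. Regions in both p30 lists and neither p42 list (12225 regions) held an anti-CEBPA site in p42 in 0.834%, and regions in both LPS lists and neither UT list (3034 regions) in 3.13%. The difference of members from the first was 1.21 points (0.772 to 1.73) and from the second -1.09 points (-1.88 to -0.336). For anti-ER in p30 the difference of members from regions gained in both lines was within counting error, at -0.232 points (-1.16 to 0.663). That comparison was over all widths, and members were the wider class. Under 400 bp, from 400 to 800 bp and at 800 bp or more, members had 2.34%, 3.05% and 5.88%. Regions gained in both lines had 3.1%, 4.1% and 8.05%, higher in each width class, with intervals that overlapped. The median distance from a member to an anti-CEBPA site in p42 was 12452 bp, against 7577 bp for mirror regions.

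Where a member held a site in 1 line alone, that line was more often p30, as it was over the whole map. Sites were seen in p30 and not p42 at 81 members (2.10%), in p42 and not p30 at 26 (0.673%), and in both lines at 69 (1.79%). Over all regions these shares were 2.57%, 1.37% and 6.88%. Regions in both p30 lists and neither p42 list had 1.39%, 0.254% and 0.736%. Of the 81, 70 rested on the anti-ER list of p30 with no other list, and this list was the longer of the anti-ER lists (34006 sites against 23248). The sites inside members had a median rank percentile, where low is strong, of 46.3 in the anti-CEBPA p42 list and 36.9 in anti-CEBPA p30. In anti-ER it was 58.0 in p42 and 56.4 in p30. Sites inside mirror regions stood at 36.4, 37.6, 36.9 and 36.9, and those inside regions of all 4 lists at 44.0, 45.6, 45.7 and 43.6. Thus sites inside members ranked weaker than in both classes except in the anti-CEBPA p30 list. With both anti-ER lists cut to the same number of sites, the share of members with an anti-ER site in p30 was 2.12%, still above 1.37% in p42. With the anti-CEBPA lists cut likewise, the p42 share fell to 1.19%, below the 1.45% of p30.

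Among the 24 members with a site in all 4 lists, the 5 with the best H3K27ac ranks differed widely in the strength of binding. The first was an 1124 bp region at chr12:85570956-85572079, 49.9 kb downstream of the start of Fos, which encodes an AP-1 subunit, at the start of a long non-coding RNA gene. Its H3K27ac fold was 5.53 in p42 LPS, 3.41 in p30 UT and 5.91 in p30 LPS, with a p42 UT peak 555 bp away. Its sites were weak in the anti-CEBPA lists, with a rank percentile of 86.1 in p42 and 93.4 in p30, and stood at 71.6 in the anti-ER list of p42 and at 48.4, with a fold of 7.35, in that of p30. The region near St3gal1, a sialyltransferase gene, at chr15:66933778-66935094, held strong sites in contrast, with a rank percentile of 1.71 and a fold of 38.4 for anti-CEBPA in p42, and of 0.656 and 65.2 in p30. Its H3K27ac fold was 3.69 in p42 LPS, 5.12 in p30 UT and 5.32 in p30 LPS, and its site summits lay 592 to 600 bp from the H3K27ac summit. A region 23.7 kb downstream of Batf3, which encodes an AP-1 family partner, at chr1:190856122-190856968, had an H3K27ac fold of 7.15 in p42 LPS, 3.13 in p30 UT and 3.44 in p30 LPS. Its anti-CEBPA fold was 12.1 in p42 and 9.81 in p30. An exon region of Cep44 at chr8:57000593-57001091 had an anti-CEBPA fold of 15.8 in p42 and 8.5 in p30. The last, at chr9:3030825-3031777 near the start of chromosome 9, had an H3K27ac fold of only 1.28, 1.57 and 1.23, and an anti-ER peak that ranked 9 in p42 and 2 in p30 by q-value at a fold of 3.50 and 4.68. The summit of that p30 peak lay at -6833 bp relative to the H3K27ac summit, outside the member. The nearest protein-coding start, that of Alkbh8, was 304 kb away, and how uniquely reads map there was not tested.

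H3K4me1 of untreated cells covered more members in p30 than in p42. It overlapped 1983 members in p30 (51.3%, 49.8 to 52.9) and 1508 in p42 (39.0%, 37.5 to 40.6). A total of 1337 members (34.6%) had it in both lines, 646 (16.7%) in p30 alone, 171 (4.43%) in p42 alone and 1709 (44.2%) in neither. Over all regions these shares were 31.0%, 11.8%, 5.45% and 51.7%. Regions in both p30 lists and neither p42 list had 21.2% in p30 alone and 3.23% in p42 alone. The p30 list was longer, with 168035 peaks against 134658, and all regions together stood at 42.8% in p30 and 36.4% in p42. Against all regions of the same width, members were higher under 400 bp and from 400 to 800 bp, and lower at 800 bp or more. In p42 the member shares were 27.7%, 37.9% and 50.8% against 19.5%, 33.2% and 66%. In p30 they were 37.7%, 50% and 65.4% against 26.3%, 40.7% and 70.7%. With both lists cut to the same number of peaks the member share was 45.9% in p30 and 39.0% in p42. Mirror regions had 42% in p30 and 43.6% in p42, with 8.91% in p30 alone and 10.6% in p42 alone. Thus a member was covered in p42 before LPS less often than a mirror region (-4.61 points, -6.83 to -2.38) and in p30 more often (9.36 points, 7.11 to 11.6).

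H3K4me1 peaks at members also ranked higher in p30 than in p42. At the 1337 members with a peak in both lines the median rank percentile was 22.9 in p30 and 38.8 in p42, and the median fold 4.21 and 3.74. The p30 peak ranked above the p42 peak at 926 of them (69.3%, 66.7 to 71.7). The corresponding shares were 45.0% (42.2 to 47.8) of mirror regions, 58.8% of regions in all 4 lists and 76.6% (75.1 to 78.0) of regions in both p30 lists and neither p42 list. A longer list gives the same rank a lower percentile. With both lists cut to 134658 peaks, the p30 peak ranked higher at 63.6% (60.9 to 66.2) of 1259 members, 38.8% (36 to 41.8) of mirror regions, 51.3% of regions in all 4 lists and 71.3% (69.7 to 72.9) of regions in both p30 lists and neither p42 list. Over all widths, H3K4me1 in p42 was more common at members than at the latter class (39.0% against 29.9%, 9.15 points, 7.42 to 10.9). It was also more common than at regions gained in both lines (30.9%, 8.15 points, 5.89 to 10.4). Members were wider than both classes, and coverage grew with width. Under 400 bp, members, the latter class and regions gained in both lines had 27.7%, 23.6% and 26.6%. From 400 to 800 bp they had 37.9% (35.8 to 40), 31.4% (30.2 to 32.6) and 33.6% (30.9 to 36.4). At 800 bp or more they had 50.8%, 49.7% and 48.7%, with intervals that overlapped. Of the members in exons, 23.3% had H3K4me1 in p42 and 33.0% in p30, and of intergenic members 51.4% and 66.1%. A C/EBPα site was held by 6.55% (5.58 to 7.67) of members with H3K4me1 in either line and by 2.05% (1.48 to 2.83) of those without. In mirror regions the same shares were 22.5% (20.7 to 24.5) and 11% (9.57 to 12.5). Members with H3K4me1 were also wider, with a median of 621.5 bp against 522 bp.

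Members lay mostly in introns, as did the regions of the map. Summits fell in introns for 2465 members (63.8%, 62.3 to 65.3), in exons for 566 (14.7%), between genes for 481 (12.5%) and in promoters, the 1000 bp before any annotated start and the 100 bp after it, for 351 (9.09%, 8.22 to 10.0). Of all regions, 62.1% were in introns, 14.7% in exons and 10.1% between genes. Promoters took up 11.9% (10.9 to 13.0) of mirror regions, 13.0% of all regions and 22.1% of regions in all 4 lists. The median distance from a member to a protein-coding start was 8515 bp.

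Chromosomes 1, 16 and 17 held more members per region than the others. The 508 members of chromosome 1 were 3.22% (2.96 to 3.51) of its regions, the 354 of chromosome 17 were 3.44% (3.11 to 3.81) and the 186 of chromosome 16 were 2.65% (2.30 to 3.05). The other 16 autosomes lay between 1.62% and 2.08%. On chromosome 16 the excess was in the distal part, with 4.04% (3.37 to 4.83) of regions beyond 50 Mb and 1.73% (1.38 to 2.17) before it. Mirror regions were 2.00% of all regions, and 1.73% on chromosome 1, 1.99% on 16 and 1.54% on 17. Regions gained in both lines, which also lack a p42 UT peak, were 1.66% of all regions, and 2.14%, 2.35% and 1.95% on these chromosomes. The p42 UT list had 7.85% of its peaks on chromosome 1, and the other 3 H3K27ac lists had 8.44% to 8.98% there. On chromosome 17 it had 5.73% against 6.24% to 6.74%, and on chromosome 16 3.76% against 3.77% to 3.89%. What sets these chromosomes apart was not tested. Without them 2815 members remained, 1.88% of the regions of the other chromosomes, and the H3K4me1 share of these was 38.3% in p42 and 49.7% in p30, their anti-CEBPA share 2.17% and 1.53%.

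**Figure D3:**
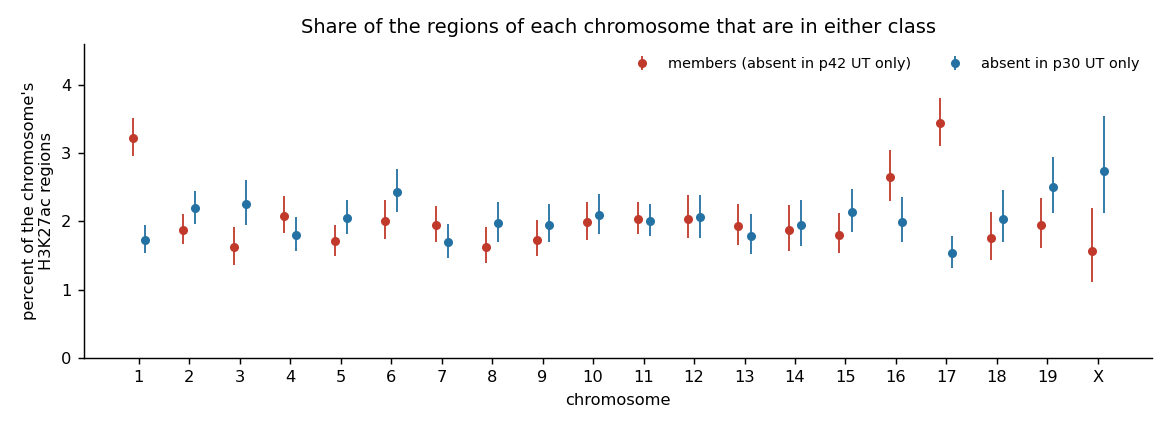
Percent of the H3K27ac regions of each chromosome (x axis, Y left out with 38 regions) that are members or mirror regions, with Wilson 95% intervals. Members reach 3.22% on chromosome 1, 2.65% on 16 and 3.44% on 17, and mirror regions do not rise there.

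NF-kB and AP-1 sequences were somewhat more frequent in members than in the rest of the map, and C/EBP sequences were not. Sequences were searched on both strands in 1000 bp around the strongest summit, outside promoters, in 3512 members and 159342 regions. The NF-kB consensus was found in 414 members (11.8%, 10.8 to 12.9) and in 9.32% of all distal regions, a ratio of 1.27 (1.16 to 1.39). Such a match describes the sequence and does not show that a factor was bound. The AP-1 site TGANTCA was in 31.2% (29.6 to 32.7) of members and 27.9% of all, a ratio of 1.12 (1.06 to 1.17). The same letters in reverse order, ACTNAGT, which keep the base composition, were in 24.6% and 25.7%, a ratio of 0.957 (0.903 to 1.01). The C/EBP site TTGCNNAA was in 32.5% (30.9 to 34.0) of members and 33.9% of all, and in 38.4% (36.7 to 40.1) of mirror regions. The RUNX sequence TGTGGTT was in 25.1% of members and 25.3% of all distal regions. GATA sequences, spelled AGATAA, were in 43.5% and 42.7%. The PU.1 sequence GAGGAAGT was in 10.1% and 9.41%, and the IRF sequence TTTCNNTTT in 44.2% and 43.1%. The composite sequences TGTTGCAA (2.36% and 2.7%) and TGATGCAA (2.39% and 2.61%) and the CRE sequence TGACGTCA (0.712% and 0.785%) were rare. The ratio of each of these 7 had an interval that included 1 in these windows. For PU.1 the interval lay above 1 in 4 of 5 alternatives, with ratios of 1.12 to 1.29, and for TGTTGCAA below 1 in 2 of 5, with ratios of 0.672 and 0.789. The C/EBP interval lay below 1 in 2 of 5 and the IRF interval above 1 in 1 of 5. None of the sequences searched contains another of them in full.

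**Figure D4:**
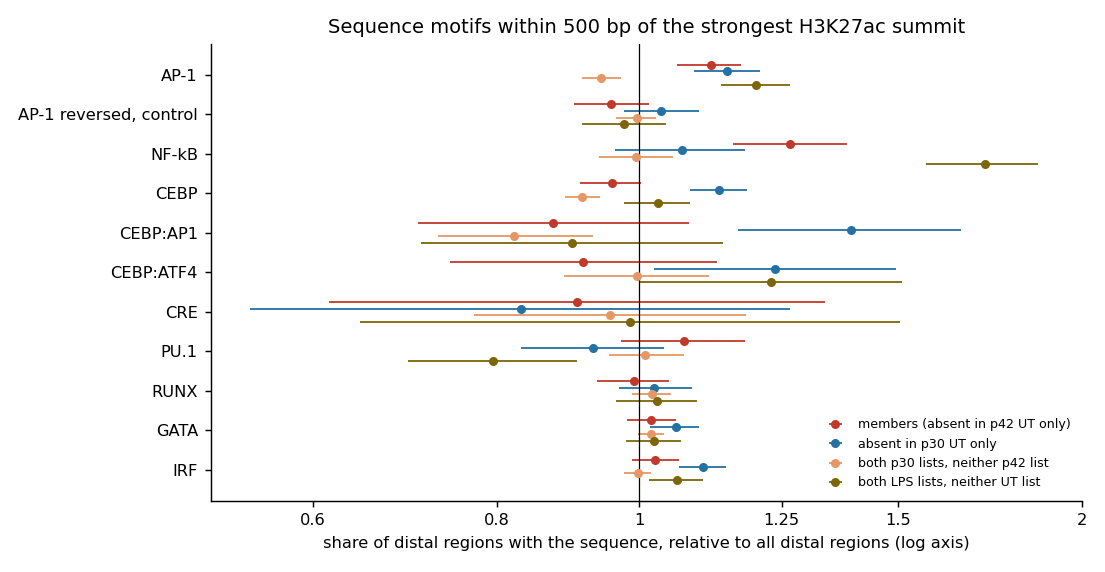
Share of distal regions with each sequence, divided by the share in all distal regions (log axis, 1 marked), for members and 3 comparison classes, with Wilson 95% intervals of the share. Members are above 1 for NF-kB (1.27) and AP-1 (1.12), and regions gained in both lines are further above 1 for NF-kB.

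Regions that gained a peak in both lines held NF-kB sequences more often than members, at 16% (14.6 to 17.4), whereas mirror regions had 9.96% (8.98 to 11.0) and regions in both p30 lists and neither p42 list 9.27% (8.75 to 9.82). For AP-1 the shares were 33.5% of regions gained in both lines, 32.0% of mirror regions, 31.2% of members and 26.3% (25.5 to 27.1) of regions in both p30 lists and neither p42 list. The intervals of members and of that last class, which shares the p30 peaks and the missing p42 UT peak, did not overlap for NF-kB or for AP-1. Regions in all 4 lists had NF-kB sequences in 10.6% and AP-1 sequences in 29.9%. The NF-kB share of members was the higher one in each band of base composition, though in the lowest band not beyond counting error. In windows with GC below 42% the members had 5.75% (4.35 to 7.57) and all regions 4.76%. From 42 to 47% the shares were 10.1% and 7.83%, from 47 to 52% 14.1% and 11.7%, and from 52% on 24.0% and 17.4%. C/EBP sequences were in 45.2% (37.6 to 53.0) of the 157 distal members with a C/EBPα site and in 31.9% (30.3 to 33.5) of the 3355 without.

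Members were spread over many genes. They were nearest to 2629 of 21738 protein-coding genes (12.1%), with 1 member each for 1908 genes and 3 or more for 262. The genes with the most members were Ptprc, the CD45 phosphatase of blood cells, and Tiam1, a Rac activator, with 14 each, then Dock10 with 10, Aff3, Jarid2, Pla2g4a, Slco3a1 and Zeb2 with 9, and Elmo1 and Foxn3 with 8. These genes had many H3K27ac regions in all, 94 to 227, of which members were 3.81% to 9.57%. Ptprc, Dock10, Aff3 and Pla2g4a lie on chromosome 1 and Tiam1 on the distal part of chromosome 16.

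The strongest members by mean rank over the 3 lists included regions far from genes and in families of similar copies. The first was a 268 bp region in an intron of Lyn at chr4:3757144-3757411, with a fold of 10.9 in p42 LPS, 8.53 in p30 UT and 13.0 in p30 LPS and an untreated p42 peak 1323 bp away. The second was at chr4:3489882-3490493, 61.8 kb from Tmem68, with folds of 7.07, 7.87 and 13.3. The third, at chr12:92850542-92850961, lay at the start of a non-coding gene, 1035 kb from the nearest protein-coding start, that of Sel1l, and was 692818 bp from an untreated p42 peak. Its fold was 3.05 in p42 LPS, 20.8 in p30 UT and 18.1 in p30 LPS. A 1790 bp region 28.3 kb from Sh2d4a had folds of 6.96, 5.91 and 12.2 and lay 87898 bp from an untreated p42 peak. The others were near Potefam3a, Sp140l1, Gm16434, Snx9, Dad1 and Gm3667. Sp140l1, Gm16434, Gm3667 and Potefam3a belong to families with similar copies, where the placing of reads is uncertain. None of the 10 held an anti-CEBPA site, and only the region far from Sel1l held an anti-ER site, in p30.

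Among genes of the LPS response, those of NF-kB and TLR signalling had more members per region than the map in lists of full length, though not beyond counting error in lists of the same length, and cytokine, interferon and AP-1 genes had about as many. Each region was assigned to the nearest protein-coding start, and the share of a list's regions that were members was read against 2.11% of all regions. Of all protein-coding genes 12.1% had a member, a share of genes that takes no account of how many regions a gene has. In the list of NF-kB and TLR signalling genes, 13 of 43 genes (30.2%) had a member, and 25 of 672 regions were members (3.72%, 2.53 to 5.43). With H3K27ac lists of the same length, 21 of 565 were (3.72%, 2.44 to 5.62), and the interval included the 2.45% of the map. Among the regions of these genes that were in the other 3 lists, 10.2% were members, against 6.38% over the map. Mirror regions were also more frequent there, at 28 of the 672 (4.17%) and near 17 of the 43 genes. The 13 with a member were Bcl3, Birc3, Irak1, Irak3, Map3k8, Nfkb1, Nfkbiz, Rel, Ripk1, Tbk1, Tlr1, Tnfaip3 and Traf1. The region at the promoter of Traf1, a TNF receptor adaptor, at chr2:34846717-34849474, had a fold of 11.7 in p42 LPS, 2.23 in p30 UT and 18.1 in p30 LPS. Its p30 UT peak was close to the limit, with a −log10 q of 1.81 and a rank percentile of 97.5, so its membership rested on a weak resting peak in p30. It held an NF-kB sequence within 100 bp of the summit, an anti-CEBPA site in p42 and anti-ER sites in both lines.

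An intron of Nfkb1, the NF-kB p50 gene, held a 1920 bp member at chr3:135345353-135347272 with folds of 4.15, 3.02 and 5.32 in p42 LPS, p30 UT and p30 LPS. An intron of Rel, an NF-kB subunit, held one at chr11:23712265-23712845 with folds of 2.95, 3.41 and 4.84. A region 168 kb upstream of Tnfaip3, the NF-kB inhibitor A20, at chr10:19059482-19060322 had folds of 3.84, 3.41 and 4.25. None of these 3 regions held a C/EBPα site, and H3K4me1 was present in both lines at the Tnfaip3 region, in p30 alone at that of Rel and in neither at that of Nfkb1.

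Of 36 LPS-induced cytokines and chemokines, 5 had a member, Ccl3, Cxcl16, Il12a, Il6 and Lif, and 7 of their 336 regions were members (2.08%, 1.01 to 4.24), close to the share over the map. Mirror regions made up 22 of the same 336 (6.55%), at 16 of the 36 genes, against 2.00% over the map. The member nearest to Il6, an acute phase cytokine, was 85.2 kb upstream at chr5:30132535-30133028, in an intron of a non-coding gene, with folds of 3.01, 3.54 and 4.24. That of Ccl3, a monocyte chemokine, was 6.4 kb upstream at chr11:83546441-83546820, had folds of 3.19, 2.62 and 2.72 and an AP-1 sequence within 100 bp of the summit. The strongest, 21.0 kb upstream of the chemokine gene Cxcl16, had folds of 4.15, 4.20 and 5.20, and one 10.0 kb upstream of Lif had 4.15, 3.41 and 5.55. None of these 4 held a C/EBPα site, and all 4 had H3K4me1 in both lines.

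AP-1 and immediate early genes had members at 16 of 39 genes (41.0%, against 12.1% of all protein-coding genes). Of their 854 regions 20 were members (2.34%, 1.52 to 3.59), close to the 2.11% of the map. They included Fos, Jun, Atf3, Batf, Batf3, Maff, Egr1, Egr3, Ier2, Nr4a1 and Myc. Besides the Fos and Batf3 regions above, a region 18.6 kb upstream of Btg1, an antiproliferative gene, had folds of 4.39, 3.53 and 6.14, and one 97.9 kb upstream of Egr3, a zinc finger factor, had 3.07, 4.07 and 7.09. Interferon-stimulated genes had 5 members in 320 regions (1.56%, 0.669 to 3.60), near Gbp2, Irf1 and Isg20. The Gbp2 member, in an intron of this guanylate-binding protein gene, held anti-CEBPA sites in both lines and 2 C/EBP sequences within 100 bp of the summit.

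Lineage genes had shares whose intervals included that of the map. Stem and progenitor genes had members at 16 of 36 genes (44.4%, against 12.1% of all protein-coding genes), among them Runx1, Myb, Meis1 and Runx2, which encode transcription factors. Of the 1439 regions of these 36 genes 40 were members (2.78%, 2.05 to 3.76). The member 258 kb upstream of Runx1 had folds of 7.17, 3.40 and 4.67, and that 43.8 kb upstream of Myb 4.92, 3.70 and 5.67. Myeloid lineage and granule genes had 10 of 470 (2.13%, 1.16 to 3.87), near Cd86, Clec4e, Gfi1, Id2, Sirpa and Trem1. C/EBP family and stress genes had 12 of 490 (2.45%, 1.41 to 4.23), near Atf6, Cdkn1a, Cebpa, Cebpd, Trib2 and Txnrd1. The Cebpa member, 12.6 kb upstream of the gene's own start at chr7:34805904-34806498, had folds of 3.23, 3.28 and 3.66 and no C/EBPα site. Lymphoid and mast cell markers had 3 of 166 (1.81%, 0.616 to 5.18), and housekeeping genes 7 of 308 (2.27%, 1.11 to 4.62). The interval of the stem and progenitor list lay above the map with regions within 100 kb of a start (3.04%, 2.15 to 4.29, map 2.1%) and without chromosomes 1, 16 and 17 (2.8%, 1.93 to 4.04, map 1.88%). With lists of the same length, none of the 9 intervals lay above the share over the map.

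Meis1 and Ikzf2 had the most members within 50 kb of any gene of the lists. Meis1, a homeobox factor of stem cells, had 7 among 88 regions, all but 1 of them in its introns, and Ikzf2, which encodes the factor Helios, had 5 among 130. At Meis1 the p42 lists were sparser throughout, with 55 peaks in p42 UT and 49 in p42 LPS against 78 in p30 UT and 85 in p30 LPS, and H3K4me1 had 61 peaks in p42 and 84 in p30. The member with the best mean rank, 121858 bp downstream of the start, had a fold of 3.23 in p42 LPS, 4.99 in p30 UT and 4.61 in p30 LPS. The 7 members had folds of 2.77 to 3.23 in p42 LPS and 2.36 to 4.99 in p30 UT, and the nearest untreated p42 peak was 265 to 1693 bp away. None held a C/EBPα site. At Ikzf2, on chromosome 1, the numbers of H3K27ac peaks were 98, 108, 93 and 116 in p42 UT, p42 LPS, p30 UT and p30 LPS, and the 5 members had folds of 2.47 to 3.12 in p42 LPS and none held a C/EBPα site.

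**Figure D5:**
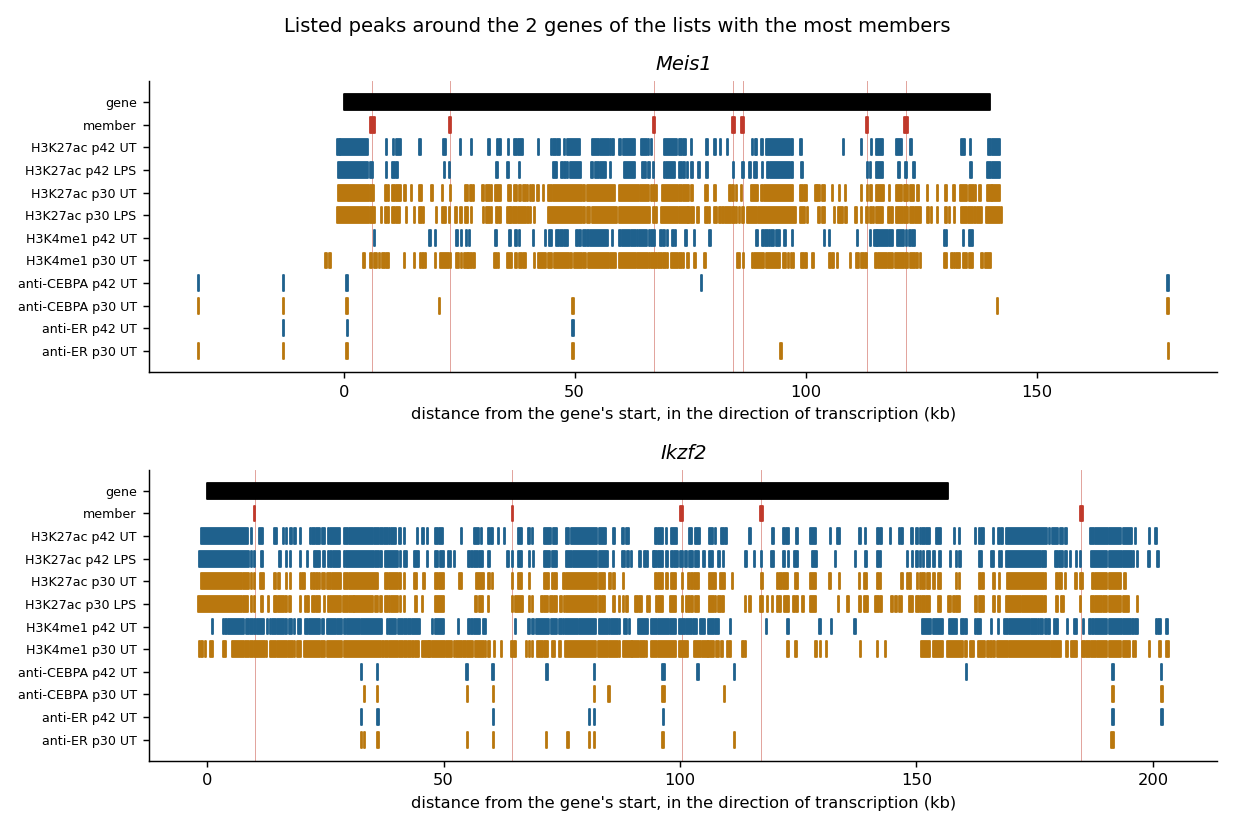
Listed peaks within 50 kb of Meis1 and Ikzf2, by distance from the gene's start in the direction of transcription (x axis, kb), with a row per list, blue for p42 and ochre for p30, and members in red with vertical lines. The 7 members at Meis1 and the 5 at Ikzf2 lie between peaks that p42 UT does hold, and no C/EBPα site falls in any of them.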

How the data were processed

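ChIP-seq of H3K27ac, H3K4me1, CEBPA and ER was measured in HPC-7 cells. Per the study's methods, the authors trimmed reads with Trim Galore (version 0.6.6 in the submitters' processing notes), aligned them to mm39 with Bowtie2, removed duplicates with Picard and called peaks with MACS2 against input, at a q-value limit of 0.05. The 10 lists used were deposited after pooling the replicates of each histone mark (3 per group for H3K27ac, 2 for H3K4me1), with 1 library per group for CEBPA and ER. Each deposited peak carries a fold enrichment over input (a ratio) and a −log10 q-value, both as MACS2 gave them. Whether the labelled replicates came from separate cultures cannot be read from a pooled list. An ATF4 list of a human leukemia line was not used here.

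From these lists, peaks were merged where they overlapped by 1 bp, ranked by q-value and then fold within each list, and overlapped with regions by 1 bp. Intervals are Wilson 95% intervals, for differences Newcombe's and for ratios of shares those of the log ratio. Summits were placed on GENCODE vM39, and each region was assigned to the nearest protein-coding start. Motifs were searched in 1000 bp of GRCm39 around the strongest summit, outside promoters. Named regions were the 10 members with the best mean rank percentile, the 5 best with anti-CEBPA and anti-ER sites in both lines, up to 4 genes of each gene list and the 10 genes with the most members. Genes given without values complete a count. Some items that these rules name are not reported here. The members and lists were chosen with earlier results of these data known. Of the 30 housekeeping genes, Hprt was not matched. The study gives sequencing depth only as a range over all samples, and the peak lists hold no read counts, so precision rests on the number of regions. Python 3.11.15, pandas 2.3.3, scipy 1.17.1, statsmodels 0.14.6 and matplotlib 3.10.9 were used. The merging, overlap and distance steps and the motif search were tested on simulated data, and the confidence intervals were not. Alternatives changed the q-value limit, list length, merging, overlap rule, promoter width and motif window.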

Additional observations from a re-analysis of the deposited data

How the results depend on the processing

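Of 137 values recomputed under an alternative, 99 moved by less than their 95% interval, or for counts by less than 1.5 times, and 38 moved by more. The NF-kB and AP-1 ratios stayed above 1 with intervals that excluded 1 in all 5 alternatives. Some ratios whose interval included 1 crossed it: CRE (0.907) was 1.05 without chromosomes 1, 16 and 17, TGATGCAA (0.915) 1.02 and PU.1 (1.07) 0.999 in 200 bp windows, and RUNX (0.991) 1.02 with members from equal lists and far from p42 UT peaks. Except where stated, the cause was not tested. The number of members was 1911 with q under 1e-05 in every list, 490 where presence needed that q and absence meant no listed peak, 2181 with peaks merged within 500 bp, and 1724 where p42 UT also had no peak within 1000 bp.

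H3K4me1 covered 24.5% of members in p42 and 36.8% in p30 with q under 1e-05, 24% and 36.8% with the summit inside a peak, and 43.2% and 56.2% for members from lists of the same length. In p30 it covered 45.9% with equal H3K4me1 lists, 53.6% of members over 1000 bp from a p42 UT peak and 49.7% without chromosomes 1, 16 and 17, an alternative chosen after seeing the data. Members per 100 regions were then 1.88. With equal H3K4me1 lists, also added after seeing the data, the p30 peak ranked higher at 63.6% of members, against 69.3%.

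Anti-CEBPA sites in p42 were at 1.19% of members with equal lists, 1.6% with q under 1e-05 and 1.06% with the summit inside. In p30 they were at 0.647% with the summit inside and 1.89% for members from equal lists. Anti-ER sites were at 0.751% in p42 with the summit inside, and in p30 at 2.12% with equal lists, 2.33% with the summit inside and 4.76% far from p42 UT peaks. With the summit inside, mirror regions held these sites in 4.65% to 7.63%. In the 7 alternatives run for each of the 4 lists, the mirror share was above that of members.

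Promoters held 32.1% of members when taken as 2500 bp to either side, 5.46% with coding starts only and 7.89% far from p42 UT peaks. The ratio for AP-1 was 1.21 and for PU.1 1.29 (1.13 to 1.47) far from p42 UT peaks. In 200 bp windows it was 1.46 for NF-kB, 0.622 for TGTTGCAA, 0.934 for RUNX and 1.08 for IRF, and in 500 bp windows 0.911 for C/EBP and 0.672 for TGTTGCAA. For C/EBP it was 0.901 with members from equal lists. Interferon genes had 3.86% of regions as members from equal lists (map 2.45%, against 1.56% and 2.11% as reported), and C/EBP family and stress genes 1.38% without the 3 chromosomes (map 1.88%, against 2.45%), so both changed sides of the map share, with intervals that included it throughout. The NF-kB and TLR list had an interval above the map share in each setting but equal lists.

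No paired analysis was possible because each list was called on pooled replicates or on 1 library, so no result comes from a test, and for the same reason no replicate was left out. Wilson intervals treat regions as independent, which neighbouring regions are not.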
